A study of Homo sapiens with 8 samples.

Results

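The 10 genes described here encode plasma membrane amino acid transporters: SLC7A11, SLC7A5, SLC3A2, SLC7A1, SLC7A3, SLC38A1, SLC38A2, SLC1A4, SLC1A5 and SLC6A9. They were taken by name from 34290 genes with at least 1 count, of which 19280 had enough counts to be tested; all 10 were among the tested genes. RNA was sequenced from HEK293T, a cell line of human embryonic kidney origin with the SV40 large T antigen, used widely because it takes up plasmids easily. One group of 4 libraries came from cells labelled normal, with the genotype control. The other group of 4 came from cells given, with the reagent FuGene HD, a plasmid with the tagged reading frame of the human gene KCNQ3. Its protein is part of the neuronal potassium channel behind the M-current. Every library has a harvest time of 48 h after transfection, and every culture was kept in high-glucose DMEM with fetal bovine serum and penicillin/streptomycin. The same transfection text stands on all samples, so it is unclear from them if control cells had reagent or empty plasmid; an effect of transfection and one of KCNQ3 cannot be told apart. Transfection was transient, the share of cells that took up the plasmid is not stated, and fewer cells of a kind and less RNA per cell cannot be told apart in such bulk samples. The study names the libraries of a group biological replicates, but no separate starting cultures are described, so the p-values rest on a spread between libraries that may be technical.

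Cells import amino acids through families of solute carriers that differ in substrate and in driving force. Exchangers of the SLC7 family trade one amino acid for another, and several of them reach the membrane only when bound to the heavy chain SLC3A2. Carriers coupled to sodium, such as those of SLC38, SLC1 and SLC6, concentrate glutamine, alanine, serine or glycine inside the cell. When amino acids are scarce, the kinase GCN2 phosphorylates the translation factor eIF2 and translation of the transcription factor ATF4 rises; genes for transporters and for amino acid synthesis are well-known ATF4 targets, bound through a short sequence called a C/EBP-ATF response element (CARE). The SLC7A11 gene is also a known target of NFE2L2 (NRF2), which binds antioxidant response elements (ARE), and MYC family proteins bind the E-box.

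The sequences around the transcription starts show which of these genes carry such letters. They are shown because the log2 fold changes of all 10 members were below 0, though none passed the test over all genes. RefSeq windows on GRCh38.p14, from 250 bases before to 50 bases after a start, were at hand for 8 of the 10 members, in 14 windows; SLC7A11 and SLC7A3 are the members without one. The CARE letters TGATGNAA, on either strand, stood in 5 of the 14 windows, 1 window each of SLC1A4, SLC1A5, SLC3A2, SLC38A1 and SLC7A1, and in 3.617% of all 35116 windows of that length. The ARE letters TGACNNNGC stood in 4 of the 14 windows and in 13.347% of all. The E-box CACGTG stood in 2 of the 14 and in 7.256% of all. A match is a description of these windows and not a bound site. Some of the windows lie at starts that held few of the gene's counts, as given below. The first 5 lines below show 30 bases around a match, 5′ to 3′ on the gene's own strand, with the matched letters in capitals. The last 2 lines give the 250 bases before the start of SLC7A5 and of SLC7A1, each with its matches in capitals. Nearly all counts of these 2 genes came from a transcript beginning within 100 bases of that start.
SLC1A4, CARE on the reverse strand, chr2:64989381-64989410, plus strand: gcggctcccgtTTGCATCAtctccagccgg
SLC7A1, CARE, chr13:29595663-29595692, minus strand: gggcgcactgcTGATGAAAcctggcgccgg
SLC1A5, CARE, chr19:46784893-46784922, minus strand: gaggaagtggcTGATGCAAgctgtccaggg
SLC3A2, CARE on the reverse strand, chr11:62881719-62881748, plus strand: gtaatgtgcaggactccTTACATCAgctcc
SLC3A2, ARE, chr11:62881652-62881681, plus strand: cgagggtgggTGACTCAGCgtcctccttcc
SLC7A5, chr16:87869508-87869757, minus strand: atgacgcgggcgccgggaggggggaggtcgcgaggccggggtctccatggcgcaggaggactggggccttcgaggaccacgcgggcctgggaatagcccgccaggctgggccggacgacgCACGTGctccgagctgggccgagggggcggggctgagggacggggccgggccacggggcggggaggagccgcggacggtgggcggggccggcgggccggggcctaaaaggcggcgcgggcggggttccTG
SLC7A1, chr13:29595689-29595938, minus strand: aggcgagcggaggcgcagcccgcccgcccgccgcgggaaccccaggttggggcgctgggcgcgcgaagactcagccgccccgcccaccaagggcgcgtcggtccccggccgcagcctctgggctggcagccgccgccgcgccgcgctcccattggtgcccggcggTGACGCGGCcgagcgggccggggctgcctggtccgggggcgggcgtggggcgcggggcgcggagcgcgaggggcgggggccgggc

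The starts beside these matches were used to different extents. The share a start held is that of all transcripts of the gene beginning within 100 bases of it. Distances are measured from the RefSeq start. The SLC1A4 match begins 7 bases before a start, and its last base is the start itself. That start held 95.57% of the gene's counts. The SLC7A1 match lies just after a start that held 99.95%. The SLC1A5 CARE match begins 97 bases before a start that held 8.17% of the counts, and both SLC3A2 matches belong to a start that held 2.14%. The windows at the most used starts of SLC3A2 (94.16%) and SLC1A5 (90.94%) held no CARE, ARE or E-box letters. Of the SLC7A5 ARE, the first 2 letters are the last of the printed run and the rest of the match lies past the start, and the E-box of SLC7A5 lies 130 bases before the start. The SLC38A1 match belongs to a start from which no transcript of the table began within 100 bases.

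KCNQ3, the transfected gene, separated the groups. Control libraries held 4, 5, 0 and 2 counts, and overexpression libraries 15283, 15874, 19709 and 18603. In CPM (counts scaled to a common library size, with TMM factors for composition) the overexpression libraries stood at 573.5, 656.7, 735.2 and 771.3, with a mean of 684 ± 88.0 (SD, n = 4) against 0.0996 ± 0.080 (SD, n = 4) in control (exact two-sided permutation test, p = 0.0286, the smallest that 4 against 4 allows). Replicate 1 was the lowest of the 4 on this scale and, at 177.7 TPM (a level per transcript length), the highest on the other. Total counts ran from 24020097 to 30734915 per library, with control replicate 1 the deepest, and mitochondrial genes took 3.99% to 5.59% of counts in control and 4.82% to 5.84% in overexpression libraries. Markers of the HEK293 line summed to 988.7 to 1153 CPM in control and 943.2 to 1058 CPM in overexpression, led by VIM. Endothelial, fibroblast and mature kidney tubule markers summed to at most 0.227, 17.6 and 20.9 CPM in any library; their most abundant genes were KDR, COL1A1 and LRP2. The blood markers PTPRC, CD3E and HBB had no count, nor had CDH5, COL1A2, DCN, UMOD and AQP2.

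All 10 transporters had a lower mean CPM in overexpression than in control cells, by 4.11% (SLC1A5) to 20.1% (SLC7A3) of the control mean. None passed the test over all genes. With edgeR's quasi-likelihood test and Benjamini-Hochberg adjustment, 58 of 19280 genes (0.301%) had an adjusted p under 0.05, 21 higher and 37 lower, and 0 of the 10 members were among them. DESeq2 called 4 of the 10 lower (SLC7A5, SLC3A2, SLC7A3 and SLC1A4) against 3.51% of all genes called lower by it, while limma-voom and limma on log2(TPM + 1) called 0. An unadjusted edgeR p under 0.05 with a lower level was found for 5 of the 10 (SLC7A5, SLC3A2, SLC7A3, SLC38A1 and SLC1A4) and for 9.46% of all genes. A log2 fold change below 0 was found for 10 of the 10 and for 47.4% of all genes. The members were chosen with earlier results of these data known. Their counts, here and below, are therefore no independent evidence of a direction. The members' median log2 fold change was -0.28, in a range of -0.32 to -0.06, and the median over all genes tested was 0.01. The values by library follow, ordered by what the carriers transport.

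**Figure D1:**
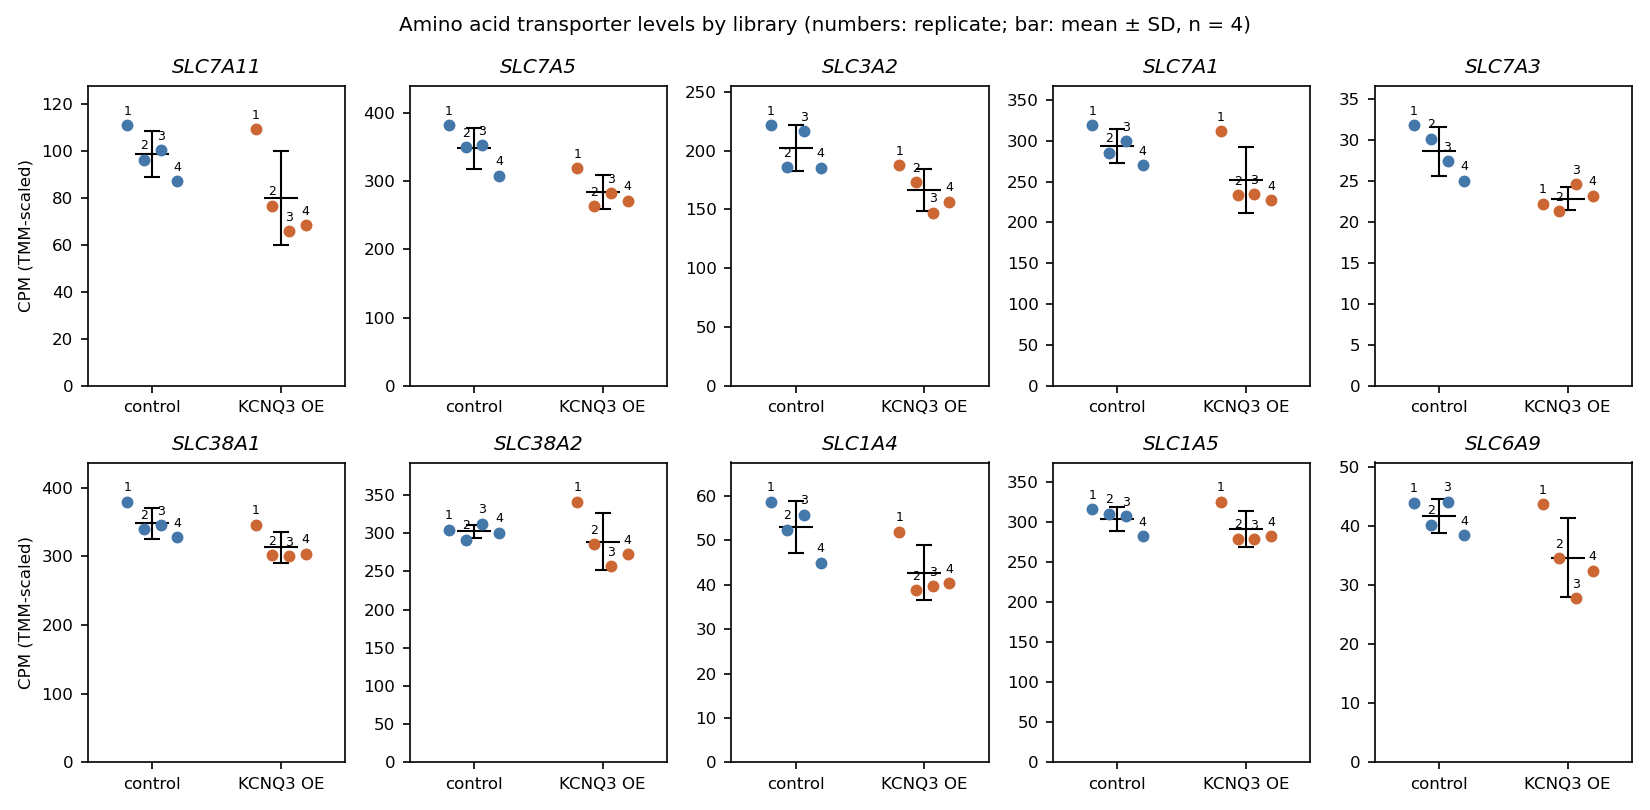
Level of each transporter in CPM (y axis, from 0) in the 4 control and 4 KCNQ3 overexpression (OE) libraries, numbered by replicate, with mean and SD (n = 4). SLC7A3 is the only one of the 10 with no overlap between groups; in the other 9, overexpression replicate 1 lies above the other overexpression libraries.

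SLC3A2 (4F2hc, CD98) is the glycoprotein heavy chain that carries its SLC7 partners to the surface; its gene lies at chr11:62856102-62888875 (GRCh38). It measured 221.6, 185.8, 216.3 and 185.3 CPM in the control libraries, in the order of replicates 1 to 4, and 187.4, 173.3, 147.3 and 156.4 CPM in the overexpression libraries, in the same order as in all values below. Only overexpression replicate 1 reached the control range, and the other 3 lay below every control. The log2 fold change was -0.28 (SE 0.09, edgeR adjusted p = 0.137), from 202 ± 19.4 to 166 ± 17.8 CPM (SD, n = 4 each). DESeq2 gave an adjusted p of 0.0214, and the 8 edgeR fits that each left out 1 library gave -0.23 to -0.35.

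SLC7A5 (LAT1; chr16:87830023-87869488, GRCh38) is the light chain that, bound to SLC3A2, brings in leucine and other large neutral amino acids in exchange for glutamine. Its levels were 381.8, 349.4, 352.2 and 307.5 CPM in control and 318.8, 263.0, 282.0 and 271.0 CPM in overexpression libraries. Again replicate 1 was the highest of its group and the only one above the lowest control. The log2 fold change was -0.29 (SE 0.08, edgeR adjusted p = 0.0922), from 348 ± 30.6 to 284 ± 24.7 CPM (SD, n = 4 each), with an adjusted p of 0.00596 by DESeq2 and of 0.0422 by edgeR without overexpression replicate 1; the 8 fits without 1 library gave -0.25 to -0.36.

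SLC7A11 (xCT; chr4:138164097-138242349, GRCh38), the other light chain among the members, imports cystine in exchange for glutamate and so feeds glutathione synthesis. Control libraries gave 111.1, 96.32, 100.4 and 87.18 CPM, and overexpression libraries 109.3, 76.78, 65.84 and 68.37 CPM. Overexpression replicate 1 was within 2 CPM of the highest control, whereas replicates 2, 3 and 4 lay below all controls. The SD within the overexpression group, 20.1 CPM around 80.1 (n = 4), was larger than the difference from the control mean of 98.8 ± 9.9 CPM (SD, n = 4), and the log2 fold change of -0.30 (SE 0.18) had an edgeR adjusted p of 0.400. Without that library the log2 fold change was -0.50, the lowest of the 10, with an edgeR adjusted p of 0.0377; without overexpression replicate 3 it was -0.22 (edgeR adjusted p = 0.590).

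The cationic amino acid transporters SLC7A1 (CAT1; chr13:29509410-29595688, GRCh38) and SLC7A3 (CAT3; chrX:70925582-70931125, GRCh38) carry arginine, lysine and ornithine and need no heavy chain. SLC7A1 measured 319.1, 285.1, 299.5 and 270.0 CPM in control and 311.5, 233.6, 234.9 and 227.1 CPM in overexpression libraries. Overexpression replicate 1 fell inside the control range and the other 3 lay within 8 CPM of each other, below it. The log2 fold change was -0.22 (SE 0.10, edgeR adjusted p = 0.293) with all libraries and -0.35 (edgeR adjusted p = 0.0314) without replicate 1, and -0.18 (edgeR adjusted p = 0.527) without overexpression replicate 4. SLC7A3, the less abundant of the pair, measured 31.84, 30.16, 27.42 and 25.06 CPM in control and 22.25, 21.35, 24.62 and 23.22 CPM in overexpression libraries. Every overexpression library lay below every control, the single member of the 10 for which this held, against 5.77% of all genes tested. Its log2 fold change of -0.32 (SE 0.08, edgeR adjusted p = 0.0807) was the lowest of the 10, from 28.6 ± 3.0 to 22.9 ± 1.4 CPM (SD, n = 4 each), and had an adjusted p of 0.00401 by DESeq2. Over the 8 fits without 1 library the log2 fold change ran from -0.27 without control replicate 1 (edgeR adjusted p = 0.204) to -0.39 without control replicate 4 (edgeR adjusted p = 0.0403).

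SLC38A1 (SNAT1; chr12:46183063-46270017, GRCh38) and SLC38A2 (SNAT2; chr12:46358189-46372867, GRCh38) are neighbouring genes for sodium-coupled carriers of glutamine, alanine and other small neutral amino acids; SLC38A2 is the carrier classically induced when amino acids are withdrawn. SLC38A1 measured 379.8, 339.2, 345.1 and 327.7 CPM in control and 346.2, 301.5, 300.7 and 303.7 CPM in overexpression libraries. Replicate 1 stood among the controls and the other 3 within 3 CPM of each other below them, giving a log2 fold change of -0.15 (SE 0.06, edgeR adjusted p = 0.208). SLC38A2 measured 304.5, 291.4, 312.0 and 300.5 CPM in control and 341.1, 285.4, 256.5 and 272.0 CPM in overexpression libraries. Here replicate 1 was the highest of all 8 libraries and the other 3 were below every control, so that the log2 fold change was -0.07 (SE 0.08, edgeR adjusted p = 0.701). Without replicate 1 it was -0.16 (edgeR adjusted p = 0.0965), and without overexpression replicate 3 it was -0.016 (edgeR adjusted p = 0.947).

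SLC1A4 (ASCT1; chr2:64988477-65023865, GRCh38) and SLC1A5 (ASCT2; chr19:46774883-46788594, GRCh38) are sodium-dependent exchangers of alanine, serine and cysteine, and SLC1A5 is also a main route for glutamine in many proliferating cells. SLC1A4 measured 58.73, 52.38, 55.80 and 45.02 CPM in control and 51.93, 38.76, 39.69 and 40.30 CPM in overexpression libraries. Overexpression replicate 1 lay above control replicate 4, and the other 3 below all controls. The log2 fold change was -0.31 (SE 0.11, edgeR adjusted p = 0.194), with 0.0421 by DESeq2 and 0.0453 by edgeR without replicate 1; the 8 fits without 1 library gave -0.26 to -0.43. SLC1A5 measured 315.7, 310.4, 307.3 and 282.3 CPM in control and 325.5, 279.0, 278.7 and 282.6 CPM in overexpression libraries. Replicate 1 was again the highest of all 8, control replicate 4 and overexpression replicate 4 were nearly equal, and the log2 fold change was -0.06 (SE 0.06, edgeR adjusted p = 0.630).

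SLC6A9 (GLYT1; chr1:43991500-44031467, GRCh38) takes up glycine with sodium and chloride and is best known for clearing glycine around synapses. It measured 43.97, 40.23, 44.14 and 38.50 CPM in control and 43.75, 34.58, 27.75 and 32.47 CPM in overexpression libraries. Replicate 1 lay within the control range and the other 3 below it. The log2 fold change was -0.27 (SE 0.13, edgeR adjusted p = 0.307) with all libraries and -0.41 (edgeR adjusted p = 0.0454) without replicate 1, and -0.18 (edgeR adjusted p = 0.432) without overexpression replicate 3.

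The 4 overexpression libraries did not behave alike. Overexpression replicate 1 was the highest of its group for 9 of the 10 members and below every control for 1 (SLC7A3), while replicates 2, 3 and 4 were below every control for 10, 10 and 9. Of all genes tested, 21.7%, 27.6%, 23.6% and 26.6% lay below every control in overexpression replicates 1, 2, 3 and 4. Centred on each gene's mean over the 8 libraries, the members' median log2 CPM was 0.26, 0.08, 0.16 and -0.01 in the control libraries and 0.13, -0.16, -0.20 and -0.21 in the overexpression libraries. Controls were not uniform either, since replicate 1 was the highest control for 8 members and replicate 4 the lowest for 9. Without overexpression replicate 1, edgeR called 5 of the 10 lower (SLC7A11, SLC7A5, SLC7A1, SLC1A4 and SLC6A9) against 1.34% of all genes called lower in that fit, and the members' median log2 fold change was -0.35. Of the other 7 fits without 1 library, the one without control replicate 4 called 1 member (SLC7A3) and the rest called 0. The log2 fold changes of all 10 stayed below 0 in each of the 18 alternatives computed.

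**Figure D2:**
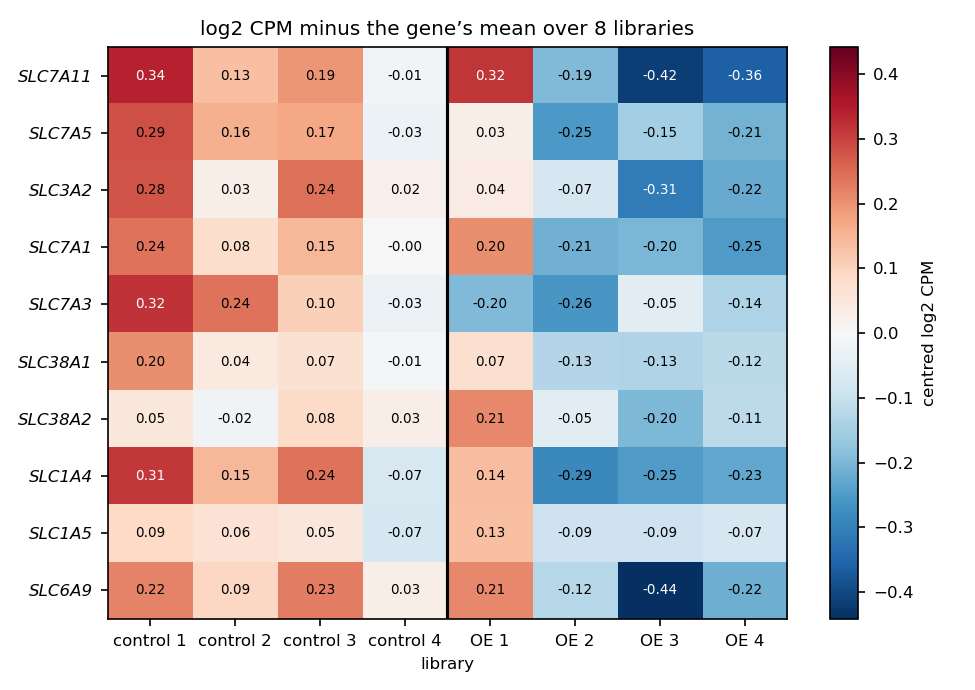
Log2 CPM of each transporter minus its mean over the 8 libraries, by library (columns) and gene (rows), red above and blue below the mean. In overexpression (OE) replicates 2, 3 and 4 all 10 genes are below their mean; replicate 1 has a median of 0.13.

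**Figure D3:**
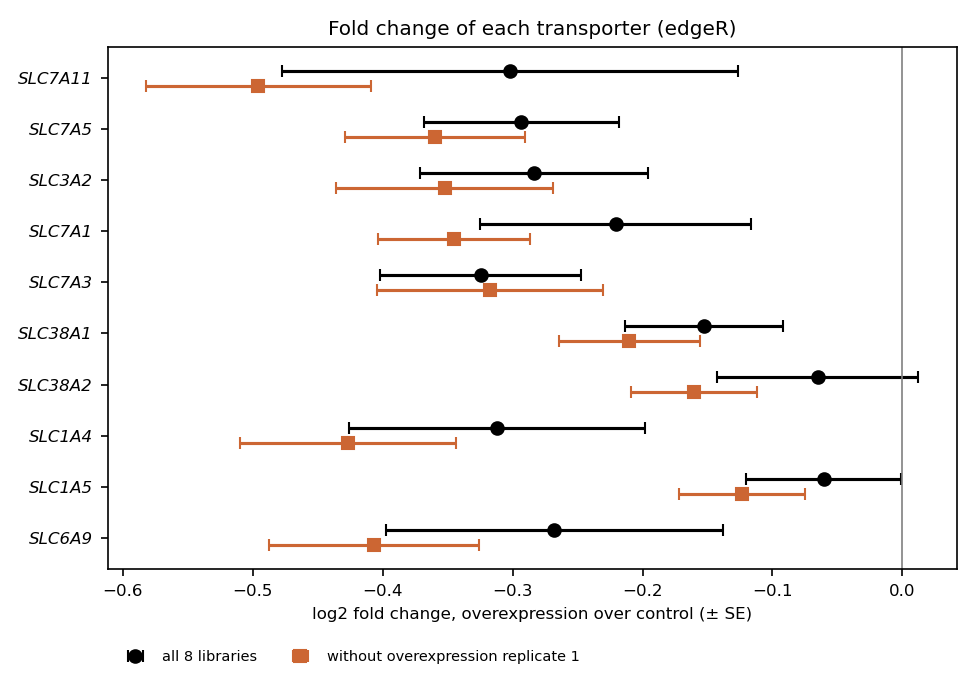
Log2 fold change of each transporter (x axis, overexpression over control, with SE) from edgeR with all 8 libraries (circles) and without overexpression replicate 1 (squares). All points lie below 0, and leaving the library out moved SLC7A11 from -0.30 to -0.50.

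Among the 9 genes of amino acid sensing by GCN2 and ATF4, overexpression replicate 1 lay within the control range for 4 (GCN1, CEBPB, CEBPG and ATF3), as it did for most of the transporters, and below every control for 5. ATF4 and its target ASNS were among the 5. ATF4, the transcription factor of the amino acid response, measured 825.6, 840.6, 810.8 and 785.1 CPM in control and 717.0, 749.9, 749.7 and 720.8 CPM in overexpression libraries. ASNS, which makes asparagine, measured 645.9, 665.7, 649.9 and 588.7 CPM in control and 444.8, 477.7, 476.1 and 473.8 CPM in overexpression libraries. On this scale replicate 1 was the lowest of all 8 for both genes. In TPM the groups overlapped for ATF4, with 736.1, 729.2, 742.7 and 630.3 in control and 650.4, 618.2, 819.7 and 782.4 in overexpression libraries. Its mean was 710 TPM in control and 718 TPM in overexpression libraries, and replicate 2 was the lowest. ASNS stayed below every control in TPM, with replicate 1 the highest of its group at 359.0. CEBPG, a partner of ATF4 in binding DNA, measured 213.8, 176.2, 226.3 and 180.3 CPM in control and 183.5, 152.6, 134.1 and 132.4 CPM in overexpression libraries, with replicate 1 alone of its group among the controls. The depth of this library lay between those of its group, and its part in the transporters' spread was not tested.

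Per length, the control cells held most RNA of SLC1A5, at 181 ± 12.9 TPM, and of SLC3A2, at 166 ± 20.4 TPM (SD, n = 4 here and below), whose ranges over the control libraries overlapped. SLC7A5 followed at 125 ± 15.7 TPM, apart from SLC3A2, and overlapped SLC38A2 at 110 ± 4.5 TPM. SLC38A1 at 80.6 ± 9.0 TPM and SLC7A1 at 65.6 ± 7.2 TPM each stood apart from the neighbour above. A gap of 2.63-fold separated SLC7A1 from SLC6A9 at 25.0 ± 2.9 TPM. SLC7A3 at 20.9 ± 3.0, SLC1A4 at 19.2 ± 2.9 and SLC7A11 at 17.2 ± 2.3 TPM completed the order, and each of these 3 overlapped the gene next to it. The cystine carrier was thus the lowest of the 10 per length.

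Partners and paralogs were then set against each other within each library, as ratios of TPM, which do not depend on a library's scaling. SLC7A5 to SLC3A2 was 0.759, 0.828, 0.710 and 0.721 in control and 0.748, 0.674, 0.852 and 0.757 in overexpression libraries. The groups overlapped, with a log2 difference of 0.00 between means whose SDs were 0.10 and 0.14 (n = 4 each; exact two-sided permutation p = 1.0). SLC7A11 to SLC3A2 had a log2 difference of -0.03 (exact permutation p = 0.7429), and the sum of 6 SLC3A2 light chains (SLC7A5, SLC7A6, SLC7A7, SLC7A8, SLC7A10 and SLC7A11) to SLC3A2 one of 0.06 (exact permutation p = 0.5714). Heavy and light chains thus gave no ratio difference beyond the spread between replicates. SLC38A2 to SLC38A1 had a log2 difference of 0.05 (exact permutation p = 0.5429). SLC1A5 to SLC1A4 showed the largest difference of the 5 ratios tested, at 8.673, 9.735, 9.037 and 10.62 in control and 10.3, 11.79, 11.11 and 11.1 in overexpression libraries. Overexpression libraries lay above the controls except that control replicate 4 was above overexpression replicate 1; the log2 difference was 0.22 (exact permutation p = 0.0571, Benjamini-Hochberg adjusted 0.2857 over 5 ratios). The adjusted values of the other ratios were 0.9286 or 1.0.

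**Figure D4:**
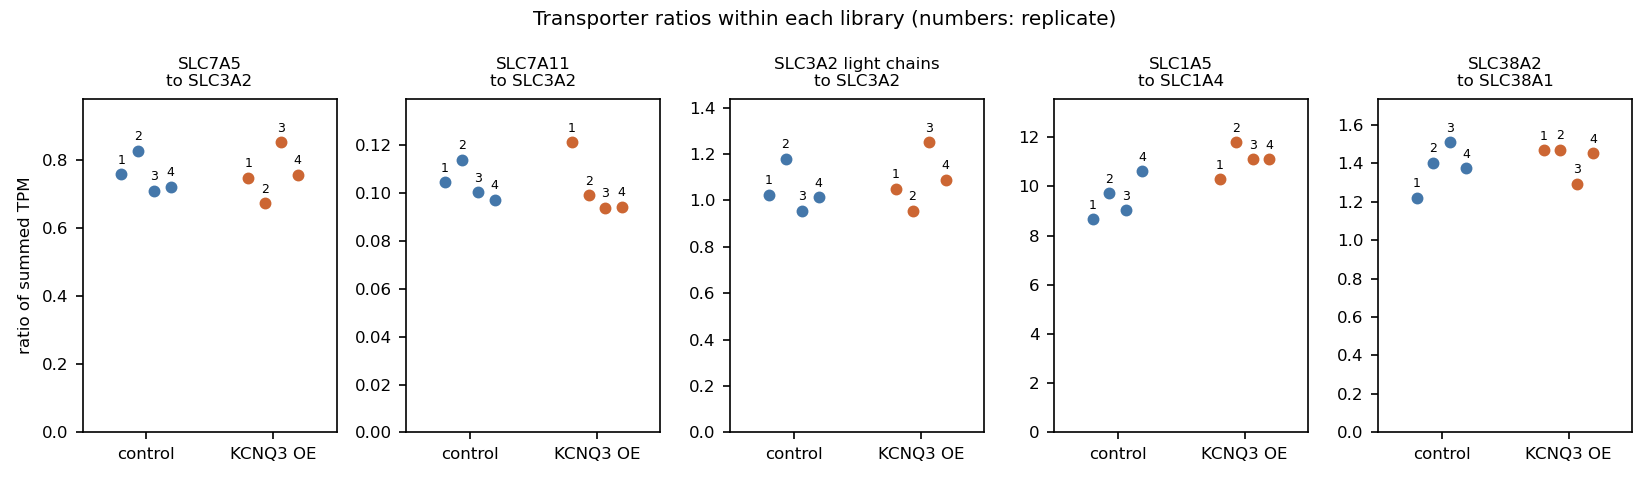
Ratio of summed TPM (y axis, from 0) for 5 pairs or groups of transporters in each control and overexpression (OE) library, numbered by replicate. The groups overlap in every panel; SLC1A5 to SLC1A4 comes closest to separating, with only control replicate 4 above overexpression replicate 1.

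At the level of transcripts, 32 of the members' transcripts were tested and 0 had an adjusted p under 0.05 with edgeR, against 6 of 47129 tested transcripts (0.0127%); 3 of the 32 had an unadjusted p under 0.05 (SLC7A5-201, SLC3A2-202 and SLC38A1-201), all with lower levels, against 2.91% of all transcripts tested. A single transcript held over 99% of the counts of SLC7A5 (SLC7A5-201), SLC7A11 (SLC7A11-201) and SLC7A1 (SLC7A1-201). SLC38A1-201 held 94.5 ± 3.8% of its gene in control and 93.4 ± 1.4% in overexpression libraries, SLC1A4-201 95.6 ± 2.4% and 95.2 ± 3.6%, and SLC1A5-203 89.4 ± 5.2% and 92.4 ± 3.7% (SD, n = 4 each). For each of these 3 transcripts the group means differed by less than the SD of either group. SLC3A2 was divided between SLC3A2-203, with 40.7 ± 5.5% of its counts in control and 47.5 ± 10.9% in overexpression libraries, and SLC3A2-202, with 47.2 ± 5.1% and 39.7 ± 8.9% (SD, n = 4 each). The SLC3A2-202 log2 fold change was -0.56 (SE 0.20, edgeR adjusted p = 0.879). SLC7A3 was divided between SLC7A3-202 (63.0 ± 19.7% in control, 80.9 ± 13.3% in overexpression) and SLC7A3-201 (37.0 ± 19.7% and 19.1 ± 13.3%), which are 2236 and 2235 bases long. The share of SLC7A3-202 ran from 44.9% to 93.6% over the libraries, a spread wider than the difference between groups. SLC38A2-201 held 87.5 ± 17.2% in control and 94.6 ± 6.3% in overexpression libraries. SLC38A2-208, an isoform annotated as subject to nonsense-mediated decay, ran from 0 to 2757 counts, or 0% to 36.5% of the gene, with the highest value in control replicate 4 and 0 in 3 libraries. SLC6A9-205 held 82.6 ± 8.5% in control and 77.6 ± 7.9% in overexpression libraries, and SLC6A9-203 held 11.4 ± 10.9% and 17.9 ± 5.1%. No test of isoform shares was made.

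Some members share sequence with other genes, among which reads may have been divided. SLC7A5 shares 3.855% of its 50-base words with SLC7A5P2 and with SMG1P3, in which that copy lies, and 0.682% with SLC7A5P1. SMG1P3 measured 28.63, 26.15, 27.46 and 23.78 CPM in control and 20.68, 18.62, 20.78 and 19.82 CPM in overexpression libraries. It was lower in overexpression cells (log2 fold change -0.41, SE 0.07, edgeR adjusted p = 0.0372), and was looked at for its shared sequence only. SLC7A5P1, with 79 to 149 counts in control and 56 to 80 in overexpression libraries, gave -0.53 (SE 0.15, edgeR adjusted p = 0.106). SLC7A11 shares short words with 215 genes, at most 0.268% of its words with any gene left out here. Exons on the opposite strand overlap SLC1A5 (AC008622.2, 13 to 31 counts), SLC6A9 (CCDC24, 57 to 92 counts) and SLC7A11 (SLC7A11-AS1, 3 to 8 counts); without strand in the counting their reads cannot be told apart from the member's, and these counts are small beside the members' own.

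Among 30 other plasma membrane amino acid transporters, 14 had enough counts to be tested and 0 passed with edgeR; 3 had an unadjusted p under 0.05 with higher levels and 2 with lower ones, and the median log2 fold change was 0.09, on the other side of 0 from the members. The 3 with the smallest p were SLC1A1, a glutamate and cysteine carrier, at 0.27 (SE 0.09, edgeR adjusted p = 0.138), SLC6A15, a carrier of branched-chain amino acids and proline, at 0.14 (SE 0.05, adjusted p = 0.150), and SLC43A1, a facilitated carrier of large neutral amino acids, at -0.17 (SE 0.06, adjusted p = 0.180). SLC7A6, which shares the heavy chain with SLC7A5, measured 70.9 ± 8.8 CPM in control and 76.9 ± 9.8 CPM in overexpression libraries (SD, n = 4 each). In TPM its mean went the other way, from 25.7 ± 3.6 in control to 23.9 ± 4.2 in overexpression libraries (SD, n = 4 each). Of 8 lysosomal amino acid transporters 7 were tested and 0 passed with edgeR (2 higher and 0 lower at unadjusted p under 0.05; median 0.09), led by MFSD12, the lysosomal cysteine importer, at 0.20 (edgeR adjusted p = 0.0807), SLC38A7 at 0.42 (adjusted p = 0.123) and SLC15A4 at 0.09 (adjusted p = 0.326). No difference between these lists and the members was tested.

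Of 12 genes for cystine use and glutathione synthesis, the pathway fed by SLC7A11, 0 passed with edgeR, 1 was higher and 3 lower at an unadjusted p under 0.05, and the median was -0.03. NFE2L2, the oxidative stress regulator, gave -0.25 (edgeR adjusted p = 0.0807), CHAC1, which degrades glutathione, -0.56 (adjusted p = 0.197) and GPX4, which reduces lipid peroxides, 0.11 (adjusted p = 0.226). In the GCN2 and ATF4 list, 1 of 9 tested genes passed, ASNS, which fell from 638 ± 33.7 to 468 ± 15.6 CPM (SD, n = 4 each; log2 fold change -0.45, SE 0.05, edgeR adjusted p = 0.00783). All 9 of its genes had log2 fold changes below 0, against 47.4% of all genes tested, and the median was -0.40. An unadjusted edgeR p under 0.05 with a lower level was found for 5 of the 9, against 9.46% of all genes. ATF4 was among these 5 by counts, but its mean was not lower in TPM (710 in control, 718 in overexpression libraries). TRIB3, a pseudokinase induced by ATF4, measured 98.94, 64.22, 96.21 and 62.04 CPM in control and 54.94, 47.0, 41.07 and 42.42 CPM in overexpression libraries, and DDIT3 (CHOP) 33.43, 30.16, 41.0 and 28.52 CPM and 24.62, 24.45, 18.28 and 16.59 CPM. For both genes every overexpression library lay below every control, as for 5.77% of all genes tested, and both had an edgeR adjusted p of 0.112. Among 18 genes that sense amino acids upstream of mTORC1, 0 passed with edgeR and the median was -0.01; 1 was higher and 0 lower at an unadjusted p under 0.05. SEC13 gave 0.15 (edgeR adjusted p = 0.106), WDR59 0.07 (adjusted p = 0.329) and SESN2, a leucine sensor and known ATF4 target, -0.44 (adjusted p = 0.284). These lists were chosen with results of these libraries known and are no independent evidence of a direction.

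**Figure D5:**
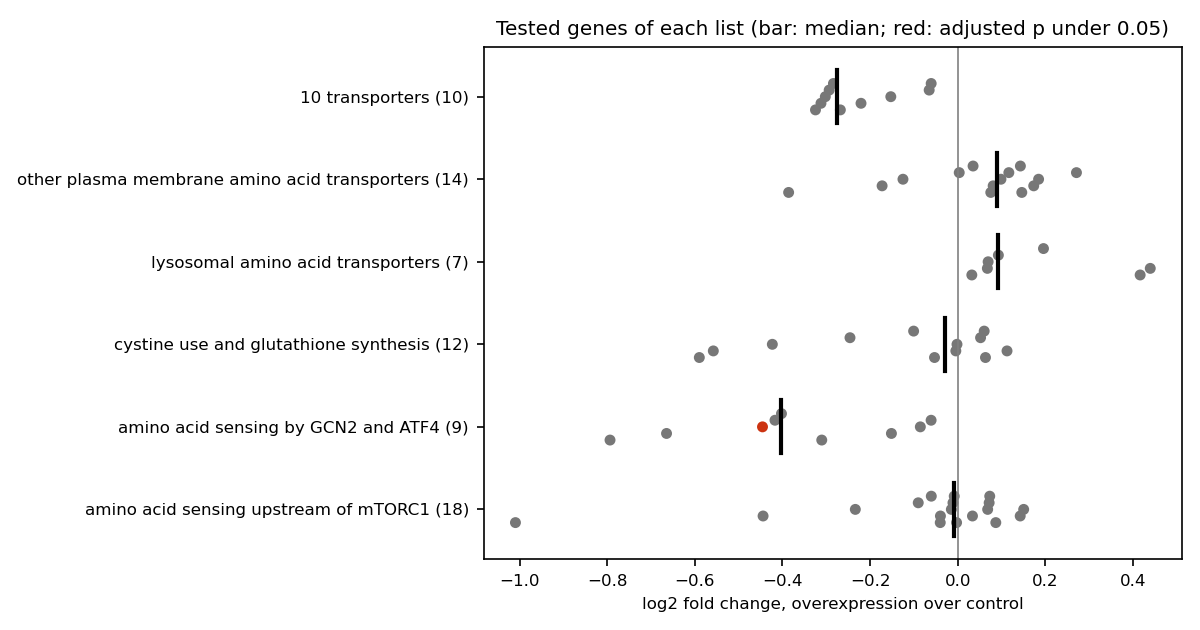
Log2 fold change (x axis, overexpression over control, edgeR) of each tested gene in the 10 transporters and 5 related lists, with the number tested in brackets, a bar at the median and red for an adjusted p under 0.05. The 10 transporters have a median of -0.28 and the other plasma membrane carriers one of 0.09; ASNS is the red point.

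The genes whose levels over the 8 libraries were most like those of a member were sought for SLC7A3, SLC1A4 and SLC7A11, the 3 members with the lowest log2 fold changes, among 11187 genes with a mean of at least 10 CPM. Likeness was the root mean square difference of centred log2 CPM, so smaller values are more alike. SLC7A3, which itself varied by 0.19 (root mean square), was nearest to ATXN2 and KIF1A, both at 0.04, and LRCH2 at 0.05. SLC1A4, with 0.22 of its own, was nearest to AJUBA at 0.05, and to TRIM56 and AMOTL2 at 0.06. AJUBA was also the nearest to SLC7A11, at 0.09 against 0.28 of its own, before UHRF1BP1 at 0.09 and CTH at 0.10. CTH makes cysteine from cystathionine, in the pathway that supplies cysteine without cystine import.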

How the data were processed

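RNA from 8 HEK293T libraries, 4 per group, was analysed from 2 tables. The authors deposited an estimated count per transcript and library as a whole number, so no rounding was needed. The second deposited table holds TPM per transcript, scaled by the authors for length and library total. The submitters' processing notes list StringTie 2.1.0, HISAT2 2.1.0, SAMtools 1.9, FastQC 0.11.5 and cutadapt 2.8, on GRCh38.p13. Not given in the sources used here are the role of each, the annotation release and any use of strand.

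Transcripts were joined by identifier to GENCODE 29 (205804 of 227751 matched, holding 98.7% to 98.9% of each library's counts) and summed per gene. Over the 12 pairs of libraries within groups, the chi-square of counts per degree of freedom was 9.72 to 18.6, above sampling noise, so all were kept as separate replicates. Genes passing filterByExpr (minimum count 10, minimum total 15) were tested with edgeR 4.0.16 (R 4.3.3; TMM factors, robust quasi-likelihood) on the 2 groups without covariates, with Benjamini-Hochberg adjustment over all genes and a threshold of 0.05; transcripts likewise. CPM use TMM-scaled library sizes. Ratios and KCNQ3 were tested by exact two-sided permutation over 70 assignments (SciPy 1.17.1). Alternatives were DESeq2 1.42.0, limma 3.58.1 (voom, and log2(TPM + 1) or log2(TPM + 0.1)), other scalings and filters, the replicate block and leaving out each library. The tests were checked on simulated data; a test of isoform usage made mostly false calls there and was not used.

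Named were all members, KCNQ3, from each list every gene past the threshold or else the 3 with the smallest p, the most abundant marker of each marker list (for blood not reported here), transcripts with at least 10% of a member's counts in a group, and the 3 genes most like each of the 3 members with the largest fold changes and at least 10 CPM. Other genes named (ATF4, CEBPG, GCN1, CEBPB, ATF3, TRIB3, DDIT3, SLC7A6, SMG1P3, SLC7A5P1 and genes sharing sequence) were chosen after their values were seen. The members and lists were chosen with earlier results of these data known. Promoter windows are RefSeq's on GRCh38.p14, while gene coordinates are GENCODE's on GRCh38.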

Additional observations from a re-analysis of the deposited data

Results flagged for a closer look

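In groups of 4 libraries, 1 library stood far from the other 3 in 5 of 32 groups examined, where the gap to its nearest neighbour, as a share of the group's whole range, exceeded Dixon's critical value; chance gives such a gap in about 1 in 20 groups. Of these, 4 were overexpression replicate 1, in the levels of SLC7A1 (gap 0.907 of the range, at 311.5 CPM), SLC38A1 (0.934, at 346.2 CPM), SLC1A4 (0.883, at 51.93 CPM) and SLC1A5 (0.918, at 325.5 CPM). In each of the 4 genes it was above the other overexpression libraries. The fifth was the ratio of SLC38A2 to SLC38A1 in overexpression replicate 3 (0.886, at a ratio of 1.294), below the other 3. The groups are not independent, since 1 library enters all genes.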

How the results depend on the processing

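The count of genes past the threshold was 58 with all libraries, and 35 without scaling factors (9 higher and 26 lower, against 21 and 37), 7 with limma on log2(TPM + 1) (5 and 2) and 7 with a pseudocount of 0.1, 1178 with DESeq2 and 8 to 378 when 1 library was left out, the lowest without overexpression replicate 2 and the highest without overexpression replicate 1. Leaving out control replicate 4 gave 194. The cause was not tested. Members past it were 0, and 4 with DESeq2 and 0 to 5 with 1 library left out: 1 without control replicate 4 and 5 without overexpression replicate 1, and 0 in the other 15 alternatives. SLC38A1, SLC38A2 and SLC1A5 passed in none of the 18. Transcripts past the threshold were 6, and 0 to 9 with 1 library left out. Same-numbered libraries did not deviate together (correlations of 0.0311, -0.0226, -0.0416 and -0.0337 over 15139 genes). These correlations show no pairing over many genes, but do not settle it for the members. With the replicate block 86 genes, 0 members and 0 transcripts passed. The SE of the log2 fold change was smaller with the block for every member except SLC7A3, where it went from 0.077 to 0.083. For SLC7A11 it went from 0.18 to 0.094 and for SLC7A1 from 0.10 to 0.056. Log2 ratio differences near 0 changed sign: SLC7A5 to SLC3A2 was -0.0082 from CPM in place of TPM and -0.0545 to 0.0581 with 1 library left out, SLC7A11 to SLC3A2 -0.1172 to 0.0126, the light chains to SLC3A2 -0.0142 to 0.1162 and SLC38A2 to SLC38A1 -0.0089 to 0.0928. SLC1A5 to SLC1A4 kept its sign, from 0.18 to 0.28. Alternatives for isoform usage were not run. The SE of the log2 fold change was widest for SLC7A11, at 0.18, and SLC6A9, at 0.13.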
